A study of Mus musculus with 13 samples.

Results

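The genes described here are the nuclear genes for subunits of oxidative phosphorylation in the mouse enamel organ, the dental epithelium that forms enamel. They were chosen by symbol from the raw counts: nuclear protein-coding genes whose symbol starts with Nduf, Uqcr, Cox4, Cox5, Cox6, Cox7, Cox8 or Atp5, together with Sdha, Sdhb, Sdhc, Sdhd and Cyc1. The rule itself uses symbols and no measured value, and it was set with earlier results of these data known. The rule found 94 of the 48709 mouse genes in the table. By complex, 36 encode subunits of complex I (7 core and 29 accessory), 8 are complex I assembly factors (Ndufaf genes), 4 belong to complex II, 9 to complex III, 20 to complex IV and 17 to complex V. Ndufa4 and Ndufa4l2 are counted with complex IV, where the protein Ndufa4 is now placed. The rule's Ndufaf genes are not subunits of the finished enzyme and are given as a class of their own.

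Enamel organs were dissected from mandibular incisors at postnatal day 11 and read by bulk RNA-seq. The mutant mice carried 1 copy of Tgfbr2 with the substitution G357W and 1 normal copy (Tgfbr2-G357W/+, called Het), and the controls were wild-type littermates (Tgfbr2-+/+, WT). There were 5 Het and 8 WT libraries. The labels name no Cre or tissue-specific allele. The substitution models Loeys-Dietz syndrome type II, a connective tissue disorder of TGF-beta signalling. Strain and sex are not stated in the labels. The labels number the samples of a genotype as separate replicates without naming the mice, so p-values measure the spread between these libraries.

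Oxidative phosphorylation is the last stage of respiration in mitochondria. Complexes I and II pass electrons from NADH and succinate to coenzyme Q, complex III passes them to cytochrome c, and complex IV hands them to oxygen. Complexes I, III and IV pump protons as they work, and complex V uses the proton gradient to make ATP. Most subunits are encoded in the nucleus and a few in mitochondrial DNA, so the nuclear genes described here supply only a part of each of complexes I, III, IV and V and the whole of complex II. Maturation-stage ameloblasts, the enamel-forming cells, move large amounts of ions and are rich in mitochondria.

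Sequencing depth was similar in both genotypes, with totals of 20266079 to 26122340 counts for Het libraries and 18852382 to 26508410 for WT libraries. The 11 markers of enamel organ epithelium, among them Amelx, Ambn and Klk4, summed to 221244 to 332409 CPM (counts scaled to library size, with trimmed-mean or TMM factors) in Het and 201456 to 344362 CPM in WT, and none was at 0 in every library. Tgfbr2 had 1464 to 2280 counts in Het and 1001 to 1821 in WT, which checks no genotype, since the substitution changes the protein sequence and not the gene's presence. Its difference did not pass the threshold (log2 fold change 0.22, adjusted p = 0.741, edgeR). The 94 members took 0.983% ± 0.100 of a library's counts over the 5 Het libraries and 0.939% ± 0.052 over the 8 WT libraries (SD). In bulk tissue, fewer cells of a type and less RNA per cell cannot be told apart.

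Of the 94 members, 91 passed the filter on low counts and were tested. The 3 not tested, Cox7b2, Cox8b and Cox8c, were close to 0 in both genotypes. None of the 91 differed between Het and WT past an adjusted p of 0.05 (edgeR's quasi-likelihood test, Benjamini-Hochberg adjustment over 16328 genes), where 0.0857% of all genes did (14 of 16328). At an unadjusted p under 0.05 there were 4 members, lower in Het in each case (Cox6b2, Cox7a1, Atp5k and Ndufc1), where 6.90% of all genes passed. Of all genes that passed, 683 were lower and 444 higher in Het. The count of members was 2 by limma-voom with sample weights. With 1 library left out it was 1 without Het 5-5, WT 4-1 or WT 5-3, 2 without Het 4-2, Het 5-6, WT 4-3 or WT 5-1, 3 without WT 1-3 or WT 1-4, 4 without Het 1-2, Het 4-5 or WT 1-1, and 6 without WT 4-4. DESeq2 called 1 member at its adjusted threshold, Cox6b2, where it called 0.461% of the genes it gave an adjusted p. The median log2 fold change (Het over WT) was -0.0046 over the members, with 43 positive and 48 negative values, and -0.0044 over all genes tested. The median SE of a member's log2 fold change was 0.11, against 0.17 over all genes tested.

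Split by complex, complex I core subunits had 6 positive and 1 negative value (median log2 fold change 0.04), accessory subunits 14 and 15 (median -0.02), assembly factors 4 and 4 (median -0.01), complex II 4 and 0 (median 0.09), complex III 3 and 6 (median -0.05), complex IV 3 and 14 (median -0.09) and complex V 9 and 8 (median 0.0027). No class held a gene past the threshold. The plot of fold changes by complex shows that each class median was smaller in size than 0.11, the median SE of a member, and that the 2 lowest values were in complex IV. The complex IV count depended on the libraries: 8 of the 17 were negative without the libraries of prefix 5, a prefix being the first number in a library's name, which the labels do not explain. It ranged from 10 to 16 when 1 library at a time was left out.

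**Figure D1:**
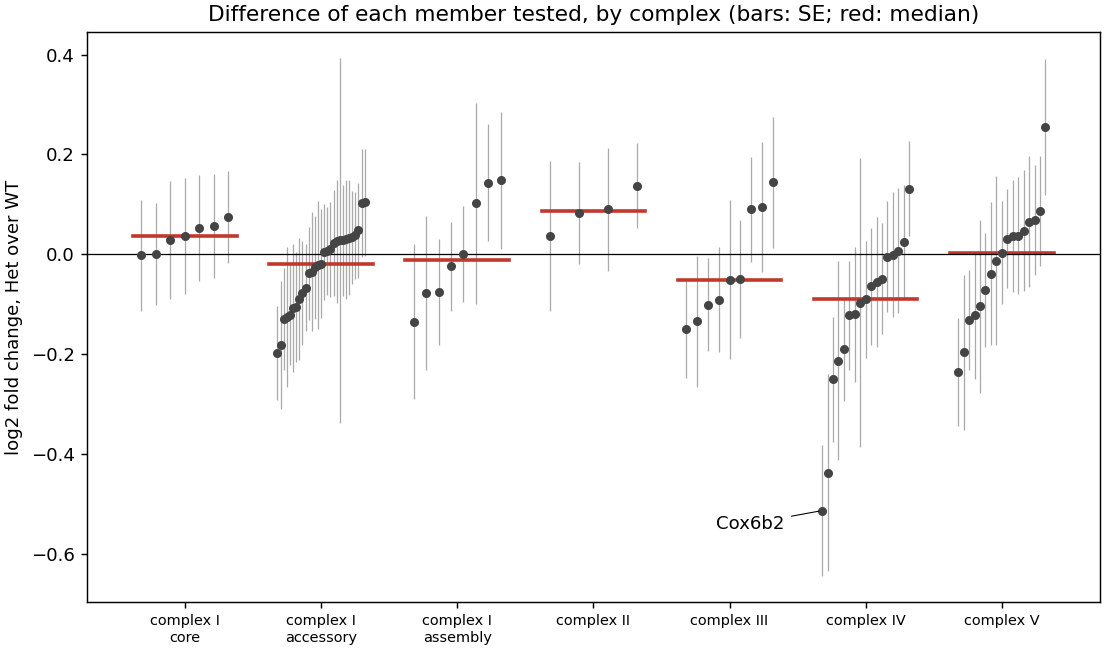
Log2 fold change (Het over WT) of the 91 members tested, grouped by complex, with points for genes, grey bars for 1 SE and red lines for class medians. Medians run from -0.09 in complex IV to 0.09 in complex II, and Cox6b2 is the lowest point at -0.51.

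Complex I takes electrons from NADH. Its 7 nuclear core subunits carry the flavin and the iron-sulfur clusters. Their levels per length, given as CPM per kb of mRNA averaged over the 13 libraries, reached 181 for Ndufv2, which holds an iron-sulfur cluster beside the flavin site. Ndufv1, the subunit that binds NADH and flavin, stood at 92.1 and Ndufs1, the largest core subunit, at 58.7 CPM per kb. Ndufs3 stood at 97.5, Ndufs7 at 82.2 and Ndufs8 at 74.4 CPM per kb. Ndufs7 and Ndufs8 hold the iron-sulfur clusters nearest to coenzyme Q.

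No core subunit differed past the threshold. Ndufv1 averaged 169 ± 17.9 CPM over the 5 Het libraries and 160 ± 9.67 CPM over the 8 WT libraries (SD), a log2 fold change of 0.07 ± 0.09 (SE; adjusted p = 0.895, edgeR). Ndufs7 had a log2 fold change of 0.06 ± 0.10 (SE). Those of Ndufs1, Ndufs3, Ndufs8 and Ndufv2 lay between -0.0020 and 0.05.

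Among the 29 accessory subunits, which surround the core and stabilise it, the spread of levels was wide. Ndufa1, a small subunit of the membrane arm, was the most abundant member per length at 560 CPM per kb. Ndufa7 followed at 517 CPM per kb. At the other end, Ndufs5 was at 0.72 CPM per kb, with 7 to 27 counts in a library. BC002163, a copy that shares part of the Ndufs5 sequence, lies elsewhere in the genome. It held 171 to 469 counts per library and 20.4 times the total of Ndufs5. Of the 75-base words of the Ndufs5 mRNA, the length of a read, 15.7% occur at other genes. Nothing states how the counting divided reads between the copies, so the low level of Ndufs5 is uncertain.

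Copies of this kind touch other members too. In all, 26 members share 75-base words with a gene elsewhere, 12 of them over more than 10% of their mRNA. The largest shares were 63.4% in Atp5l, a subunit of the complex V membrane part, 35.8% in Atp5g2 and 35.2% in Ndufb4. These 3 stood at 9.72, 5.51 and 14.4 CPM per kb, each below the median of its class. Their counted copies held 197, 27 and 20 counts in all, against 1620, 1222 and 4284 for the members themselves. Relative to the member, copies held more for Ndufa12 (22% of words shared, 3234 counts against 5736) and Cox7a2l (13.4%, 2813 against 16982). Of the 12, Ndufs3 (97.5 CPM per kb) lay above its class median of 82.2. Atp5h (155) and Atp5f1 (284) lay above the complex V median of 113, and the rest of the 12 were at or below theirs. The effect of shared words on levels was not tested. In addition, 32 members overlap a gene on the opposite strand, and the library kit does not mark strand.

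Ndufc1, an accessory subunit of the membrane arm, had the smallest unadjusted p in complex I. It measured 187, 171, 195, 143 and 186 CPM in Het, and 199.5, 187, 198, 212, 201, 199.7, 201 and 222 CPM in WT. Het 1-2 and Het 4-5 lay above the lowest WT library, WT 1-3, and Het 5-5 was the lowest of the 13 libraries. Ndufc1 had a log2 fold change of -0.20 ± 0.09 (SE; unadjusted p = 0.0498, adjusted p = 0.722, edgeR), which was -0.11 without prefix 5. Ndufa3, the next by p in its class, had a log2 fold change of -0.18 ± 0.13 (SE; adjusted p = 0.806, edgeR). Ndufb5 had 0.03 ± 0.11.

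The 8 assembly factors were less abundant than the subunits they help to build: their median was 11.0 CPM per kb, against 68.3 for accessory and 82.2 for core subunits. They ran from 1.69 for Ndufaf6 to 32.1 for Ndufaf8. Ndufaf5, which modifies Ndufs7, had a log2 fold change of 0.15 ± 0.14 (SE; adjusted p = 0.851, edgeR). Ndufaf7, a methyltransferase of complex I assembly, had 0.14 ± 0.12 (SE; adjusted p = 0.831, edgeR).

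Complex II, succinate dehydrogenase, links the citric acid cycle to the chain and holds no mitochondrially encoded subunit. Sdhb, the iron-sulfur subunit, was its most abundant gene at 297 CPM per kb. The membrane anchors were at 87.0 (Sdhd) and 6.34 (Sdhc), and the flavoprotein Sdha at 65.9 CPM per kb. Sdha measured 212, 194, 212, 189 and 205 CPM in Het, and 191, 193, 191, 177, 186, 177, 193 and 164 CPM in WT. In 4 of the 5 Het libraries the value was above the highest WT value, and Het 5-5 lay within the WT range. For Sdha the log2 fold change was 0.14 ± 0.09 (SE; unadjusted p = 0.124, adjusted p = 0.783, edgeR). Those of Sdhb, Sdhc and Sdhd were 0.08, 0.04 and 0.09, none past the threshold.

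Complex III carries electrons from coenzyme Q to cytochrome c. Uqcr10, a small subunit, was its most abundant gene at 308 CPM per kb, and the core protein Uqcrc1 its least at 47.0. Cyc1, the cytochrome c1 subunit, stood at 53.7 and Uqcrfs1, the Rieske iron-sulfur protein, at 73.5 CPM per kb. Uqcr10 averaged 125 ± 11.5 CPM over the 5 Het libraries and 139 ± 13.9 CPM over the 8 WT libraries (SD), a log2 fold change of -0.15 ± 0.10 (SE; adjusted p = 0.789, edgeR). Uqcrc2, the other core protein, averaged 148 ± 27.2 CPM in Het and 134 ± 22.2 CPM in WT (SD), a log2 fold change of 0.14 ± 0.13 (SE; adjusted p = 0.850, edgeR). The log2 fold changes were 0.09 ± 0.10 for Uqcrfs1 and -0.05 ± 0.16 for Cyc1 (SE).

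Complex IV, cytochrome c oxidase, is the complex with alternative genes for the same position. In each pair a widely used form stands beside one known mainly from particular tissues or conditions: Cox4i2 from lung and low oxygen, Cox6a2 and Cox7a1 from heart and skeletal muscle, Cox6b2 from testis, Cox8b from muscle and brown fat, and Ndufa4l2 from low oxygen. In the enamel organ the widely used form was the more abundant per length in every pair. Cox4i1 stood at 377 CPM per kb and Cox4i2 at 24.9. Cox6a1 stood at 86.0 and Cox6a2 at 24.8. Cox6b1 stood at 196 and Cox6b2 at 17.1. The Cox7a genes were at 215 (Cox7a2), 48.5 (Cox7a2l, a supercomplex assembly protein) and 10.8 (Cox7a1). Cox8a was at 210 and Cox8b at 0.47. Ndufa4 was at 403 and Ndufa4l2 at 3.25 CPM per kb.

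**Figure D2:**
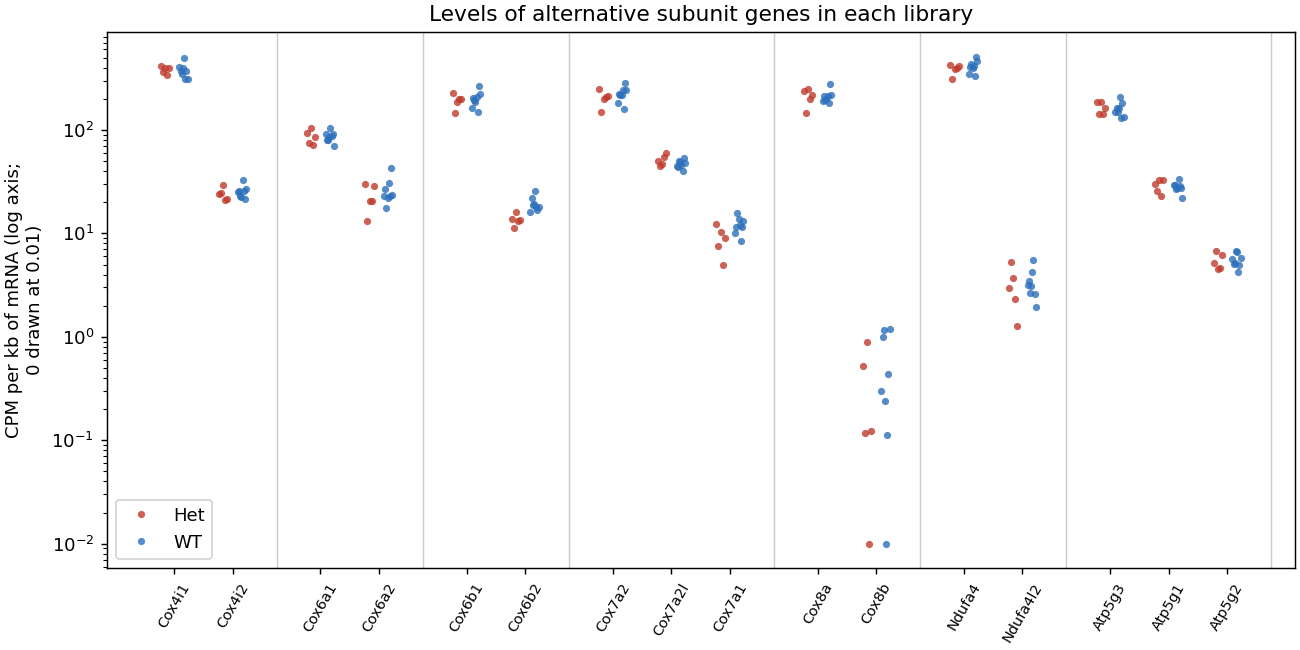
CPM per kb of mRNA (log axis) in each library for alternative genes of 6 complex IV positions and for the 3 subunit c genes of complex V, with Het in red on the left and WT in blue on the right of each gene. Each widely used form lies above its alternative, from Cox6a1 at 86.0 over Cox6a2 at 24.8 to Cox8a at 210 over Cox8b at 0.47.

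As a share of the pair per length, Cox6a2 made up 20.7% ± 4.61 over the 5 Het libraries and 23.1% ± 4.34 over the 8 WT libraries (SD), the largest share of the 6 alternative forms. Cox4i2 made up 5.98% ± 0.73 in Het and 6.40% ± 0.91 in WT (SD). The share of Cox6b2 ran from 5.78% to 7.89% in Het and from 5.95% to 11.0% in WT, so its ranges overlap. Cox8b had 4, 1, 9, 0 and 1 counts in Het, and 2, 9, 10, 2, 0, 1, 4 and 10 counts in WT. Cox8c had 1 count over the 13 libraries. Cox7b2, a testis form of the Cox7b position, had 1 or 0 counts in each Het library and 2 counts in 1 WT library.

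Cox6b2 had the smallest p of all members. Its counts were 222, 198, 335, 236 and 229 in Het, and 222, 414, 334, 329, 395, 328, 317 and 311 in WT. Scaled to library size it measured 10.3, 8.35, 11.8, 9.69 and 10.1 CPM in Het, and 12.03, 16.5, 14.0, 14.2, 19.1, 13.4, 12.3 and 13.3 CPM in WT. Each Het library was below each WT library, which no other member showed in either direction. Such separation with Het lower was seen in 0.233% of all genes tested, and separation in either direction in 0.490%. The log2 fold change was -0.51 ± 0.13 (SE; unadjusted p = 0.000886), and the edgeR adjusted p of 0.223 did not pass the threshold.

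The size of the Cox6b2 difference moved little with the processing. Over 27 alternatives, its log2 fold change ran from -0.57 to -0.44, with adjusted p-values from 0.0364 (DESeq2) to 0.906. Within prefixes, Het minus WT was -0.44 in prefix 1, -0.63 in prefix 4 and -0.37 in prefix 5 on the log2 CPM scale, over as few as 1 Het library. Its partner Cox6b1 averaged 118 ± 18.1 CPM over the 5 Het libraries and 123 ± 22.0 CPM over the 8 WT libraries (SD), a log2 fold change of -0.06 ± 0.13 (SE). Whether the log2 fold changes of Cox6b2 and Cox6b1 differ was not tested.

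Promoter sequences are shown for this pair and for the 2 members whose windows hold the motif of nuclear respiratory factor 1 (NRF1) in the same complex as Cox6b2 and in complex II. They are the 250 bases upstream of the RefSeq gene start, 5′ to 3′ on the gene's strand, from RefSeq on GRCm38.p6. Capitals mark letters that match a motif of NRF1 or of the ETS factor GABP, both known regulators of respiratory chain genes. Cox6b2 lies on the minus strand at chr7:4753095-4753344, Cox6b1 on the minus strand at chr7:30626115-30626364, Cox6a1 on the minus strand at chr5:115348959-115349208 and Sdhb on the plus strand at chr4:140961021-140961270.
Cox6b2: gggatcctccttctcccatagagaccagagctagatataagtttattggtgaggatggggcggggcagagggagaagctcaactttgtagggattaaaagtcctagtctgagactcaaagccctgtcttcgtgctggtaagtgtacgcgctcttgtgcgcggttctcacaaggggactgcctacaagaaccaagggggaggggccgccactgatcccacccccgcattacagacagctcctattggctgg
Cox6b1: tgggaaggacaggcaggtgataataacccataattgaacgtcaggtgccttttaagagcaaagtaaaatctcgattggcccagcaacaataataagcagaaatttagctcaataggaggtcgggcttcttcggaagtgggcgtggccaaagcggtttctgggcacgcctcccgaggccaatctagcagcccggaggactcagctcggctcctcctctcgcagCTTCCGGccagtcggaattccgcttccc
Cox6a1: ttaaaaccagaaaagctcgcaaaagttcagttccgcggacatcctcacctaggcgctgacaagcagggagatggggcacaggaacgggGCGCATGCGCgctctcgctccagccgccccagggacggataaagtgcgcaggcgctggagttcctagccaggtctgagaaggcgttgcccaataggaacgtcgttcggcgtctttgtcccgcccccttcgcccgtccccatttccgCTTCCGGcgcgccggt
Sdhb: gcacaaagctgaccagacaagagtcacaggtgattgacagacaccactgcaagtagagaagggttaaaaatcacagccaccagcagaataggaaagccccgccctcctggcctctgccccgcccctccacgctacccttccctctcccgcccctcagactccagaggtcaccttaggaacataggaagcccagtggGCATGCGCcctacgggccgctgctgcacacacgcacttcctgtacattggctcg

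The window of Cox6b2 holds none of the 4 motifs searched, and that of Cox6b1 holds the ETS letters. Windows were found for 74 members (79 windows) by symbol. The NRF1 half-site GCGCATGC, searched on both strands, was in 11.4% of the member windows and in 2.26% of all 32851 windows. The ETS letters CCGGAAG were in 17.7% and 6.91%. The YY1 letters AAGATGGCG were in 1.27% and 0.606%, and the estrogen-related receptor letters TCAAGGTCA in 1.27% and 0.387%. Median GC content was 56.4% in member windows and 52.4% in all windows, and the shares were not adjusted for it. A match of letters is a description of the sequence and was not set against binding.

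Cox7a1, the muscle form of its position, had the next smallest p. It measured 6.64, 4.05, 5.57, 2.67 and 4.84 CPM in Het, and 5.42, 6.12, 8.35, 7.32, 6.49, 4.56, 6.22 and 6.97 CPM in WT. The groups overlap: Het 1-2, Het 4-5 and Het 5-6 lay inside the WT range, and WT 1-4 was the highest library. Its log2 fold change was -0.44 ± 0.20 (SE; unadjusted p = 0.0392, adjusted p = 0.702, edgeR). It was -0.23 without prefix 5. Cox7b, which has no muscle form, had a log2 fold change of -0.25 ± 0.13 (SE; adjusted p = 0.741, edgeR).

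Skeletal muscle markers varied between libraries. All 14 were detected, and they summed to 15.9 to 88.0 CPM in Het and 12.02 to 202 CPM in WT, with the highest sums in Het 1-2 and WT 1-4. These were also the libraries with the highest Cox7a1 in their genotype. The 11 muscle markers tested all had negative log2 fold changes, with a median of -0.51 and none past the threshold. For Cox6a2 the genotypes differed in this. Het 1-2 had the highest Cox6a2 CPM of the Het libraries, while WT 1-4 had the lowest of the WT libraries. The part of muscle in either gene was not tested. Its CPM values were 20.4, 8.94, 14.1, 14.1 and 19.3 in Het, and 15.7, 18.2, 11.9, 15.1, 20.9, 15.8, 28.8 and 16.04 in WT. For Cox6a2 the log2 fold change was -0.21 ± 0.20 (SE; adjusted p = 0.856, edgeR). Cox6a2 overlaps Itgad on the opposite strand. The 6 fat markers summed to at most 1.56 CPM in Het and 1.24 CPM in WT. With the muscle marker mean as a covariate, 0 members were called. The fit without it also called 0, so this count cannot show the part of muscle.

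**Figure D3:**
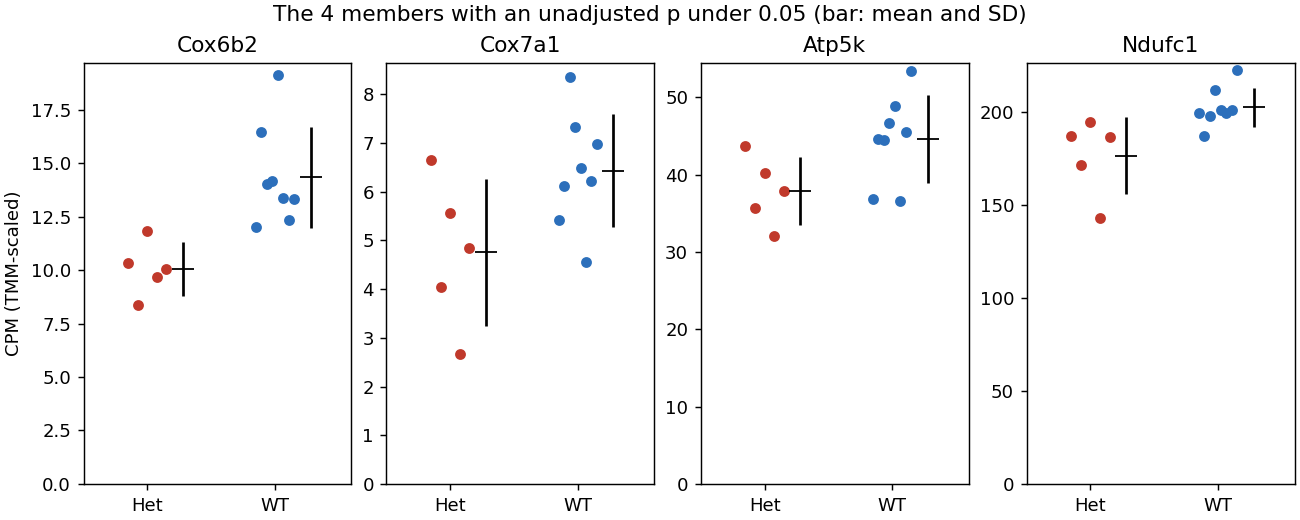
CPM in each library for the 4 members with an unadjusted p under 0.05, with Het on the left and WT on the right (points: libraries; bar: mean and SD). Het and WT do not overlap for Cox6b2, where Het reaches 11.8 and WT starts at 12.03, and overlap for the other 3.

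The other complex IV members lay nearer to 0. The largest of them in size was Cox7c at -0.19 ± 0.10 (SE; unadjusted p = 0.0818, adjusted p = 0.758, edgeR). Log2 fold changes were 0.0072 for Cox5a, -0.05 for Cox5b, -0.12 for Cox6c, 0.02 for Cox4i1, -0.06 for Cox4i2, -0.0046 for Cox6a1, -0.12 for Cox7a2, 0.13 for Cox7a2l, -0.0010 for Cox8a, -0.09 for Ndufa4 and -0.10 for Ndufa4l2. The largest of their SEs was 0.29, for Ndufa4l2, which overlaps Shmt2 on the opposite strand.

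Complex V, ATP synthase, took 0.301% ± 0.031 of a library's counts over the 5 Het libraries and 0.281% ± 0.015 over the 8 WT libraries (SD). Atp5o, which encodes the subunit joining the catalytic head to the stalk, was its most abundant gene at 507 CPM per kb. The catalytic beta subunit Atp5b stood at 263 and the alpha subunit Atp5a1 at 151 CPM per kb. The proton-carrying subunit c is encoded by 3 genes with the same mature protein. These stood at 161 (Atp5g3), 28.3 (Atp5g1) and 5.51 (Atp5g2) CPM per kb. Before division by length, Atp5g1 was above Atp5g3, with means of 141 against 119 CPM in Het and 138 against 116 CPM in WT. The exon length used was 4912 bases for Atp5g1 and 724 for Atp5g3. The log2 fold changes were 0.04 (Atp5g3), 0.04 (Atp5g1) and -0.01 (Atp5g2).

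Atp5k, which encodes subunit e of the membrane part, measured 43.8, 35.7, 40.2, 32.1 and 37.9 CPM in Het, and 36.9, 44.6, 44.5, 46.7, 48.9, 36.6, 45.6 and 53.4 CPM in WT. The lower WT values, in WT 1-1 and WT 4-4, lie within the Het range. The log2 fold change was -0.24 ± 0.11 (SE; unadjusted p = 0.0419, adjusted p = 0.706, edgeR), and it was -0.11 without prefix 5. Atp5s, which encodes coupling factor B, had the largest positive value of the members. It measured 17.8, 17.5, 20.8, 27.3 and 20.97 CPM in Het, and 16.3, 19.0, 21.7, 12.8, 15.1, 15.9, 18.9 and 20.2 CPM in WT. Only Het 5-5 stood above the WT range. The log2 fold change was 0.26 ± 0.14 (SE; unadjusted p = 0.0756, adjusted p = 0.753, edgeR), and 0.15 without Het 5-5.

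Many members moved together in some libraries of both genotypes. For each of the 91, the deviation of a library from the gene's mean was taken on the log2 CPM scale. The first principal component of these deviations, over all 13 libraries, held 43.3% of the variance. Neither this share nor the library counts that follow were taken for all genes tested. Whether they are particular to the members was therefore not tested. In Het 4-2, 85 of the 91 members were below their own mean, with a mean deviation of -0.22. In WT 4-4, 77 of 91 were below, with a mean deviation of -0.19. WT 5-1 was the highest library at 0.16. The mean deviation was -0.02 ± 0.13 over Het libraries (SD, n = 5) and 0.01 ± 0.11 over WT libraries (SD, n = 8), a difference of -0.03 that is smaller than either SD.

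These 3 libraries were also at the ends of the summed enamel organ markers. The summed CPM of the 11 markers was 221244 in Het 4-2, the lowest of Het, and 201456 in WT 4-4, the lowest of WT, and 344362 in WT 5-1, the highest of all. Ambn, for the matrix protein ameloblastin, made up most of that sum, with 155987 CPM in Het 4-2, 124685 CPM in WT 4-4 and 250976 CPM in WT 5-1. Single markers went other ways: Amelx was highest of the 13 libraries in Het 4-2 (22277 CPM), and Odam was highest in WT 4-4 (53708 CPM). WT 4-4 also had the highest sums of odontoblast and pulp (2877 CPM), fibroblast (4475 CPM), and endothelium and pericyte markers (14401 CPM). Single genes made up most of each sum in WT 4-4: Col1a2 (2867 CPM), Col3a1 (4032 CPM) and Rgs5 (14268 CPM). In the first list, Nes was highest in WT 4-4 (6.68 CPM), but Dspp was highest in WT 5-3 (64.5 CPM, against 2.81 in WT 4-4). In the fibroblast list, Dcn was highest in WT 4-4 (148 CPM). Lum was highest in WT 5-1 (331 CPM, against 241 in WT 4-4) and Pdgfra in Het 4-5 (55.7 CPM, against 55.0 in WT 4-4). In the last list, Pecam1 was highest in WT 4-4 (26.0 CPM), Cdh5 in WT 1-1, Kdr in Het 4-5 and Acta2 in Het 5-5. Not every library kept the order of marker sums and member deviations. Het 4-5 had a marker sum of 227187 CPM with a mean deviation of 0.04, and Het 5-5 had 307337 CPM with -0.07. WT 4-3 had 262745 CPM with 0.13. The part of tissue makeup in the members' levels was not tested. Without Het 4-2 and WT 4-4, 0 members were called between the genotypes, and the log2 fold change of Cox6b2 was -0.47.

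**Figure D4:**
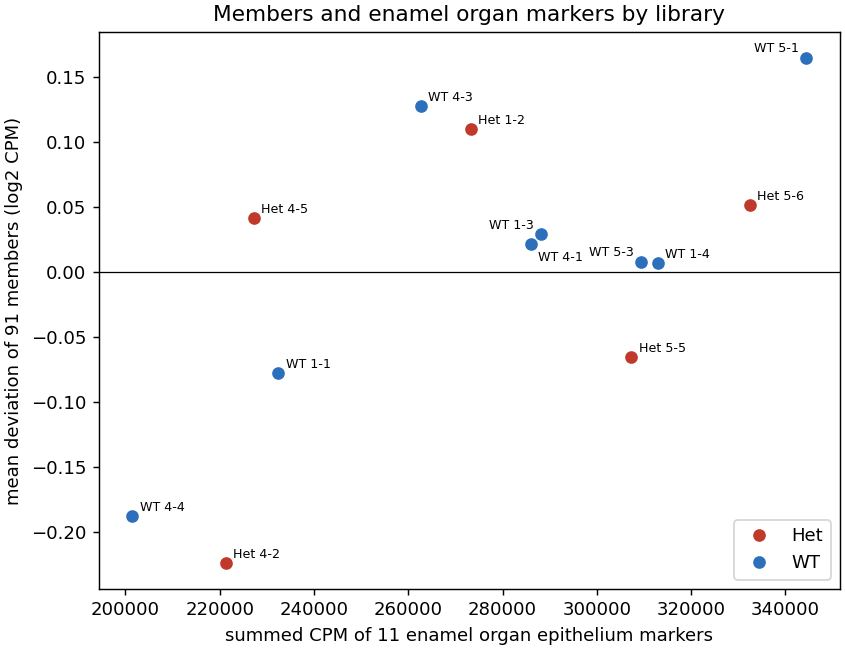
Mean deviation of the 91 members from their own means (log2 CPM, vertical axis) against the summed CPM of 11 enamel organ epithelium markers (horizontal axis), with 1 point per library, Het in red and WT in blue. Het 4-2 (-0.22) and WT 4-4 (-0.19) lie lowest and WT 5-1 (0.16) highest, and the genotypes are interleaved. WT 4-3 (0.13) lies next highest at a marker sum of 262745 CPM.

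Between the library prefixes, with genotype in the model, 2 members passed an edgeR adjusted p of 0.05, Uqcrc2 (adjusted p = 0.0448) and Ndufa4l2 (adjusted p = 0.0319), where 6.08% of all genes did. DESeq2 called 13 members, where 15.4% of the genes it gave an adjusted p were called. Uqcrc2 averaged 7.15, 6.88 and 7.35 log2 CPM in prefixes 1, 4 and 5, and Ndufa4l2 averaged 1.55, 2.03 and 0.94. Ndufb5 was next by p (adjusted p = 0.0528), with 6.77, 6.64 and 7.02. These calls rest on few libraries: the count was 0 without Het 4-2, Het 4-5, Het 5-5, WT 4-3, WT 4-4 or WT 5-1, 1 without Het 1-2, WT 1-3, WT 1-4, WT 4-1 or WT 5-3, 2 without Het 5-6 and 5 without WT 1-1. The labels do not state what a prefix stands for.

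The sign of the small differences went in part with mRNA length, taken as all exon bases of a gene's protein-coding transcripts. Of the 24 members with an mRNA of up to 700 bases, 21 had a negative log2 fold change (median -0.11), against 62.7% of 158 other protein-coding genes of that length (median -0.05). Of the 16 members of over 1500 to 2500 bases, 3 were negative (median 0.07), against 46.2% of 2796 other genes. Negative values were 10 of 21 over 700 to 1000 bases, against 43.9% of other genes, and 11 of 21 over 1000 to 1500, against 43.1%. Over 2500 bases they were 3 of 9 (median 0.04), against 50.7%. Spearman's correlation of length with log2 fold change was 0.54 across the 91 members and -0.08 across 13584 other protein-coding genes. Genes of 1 library set share depth, RNA quality and cell makeup and are not independent replicates. The short-gene count was 14 of 24 without prefix 5, 17 without Het 4-2 and 17 without WT 5-1.

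**Figure D5:**
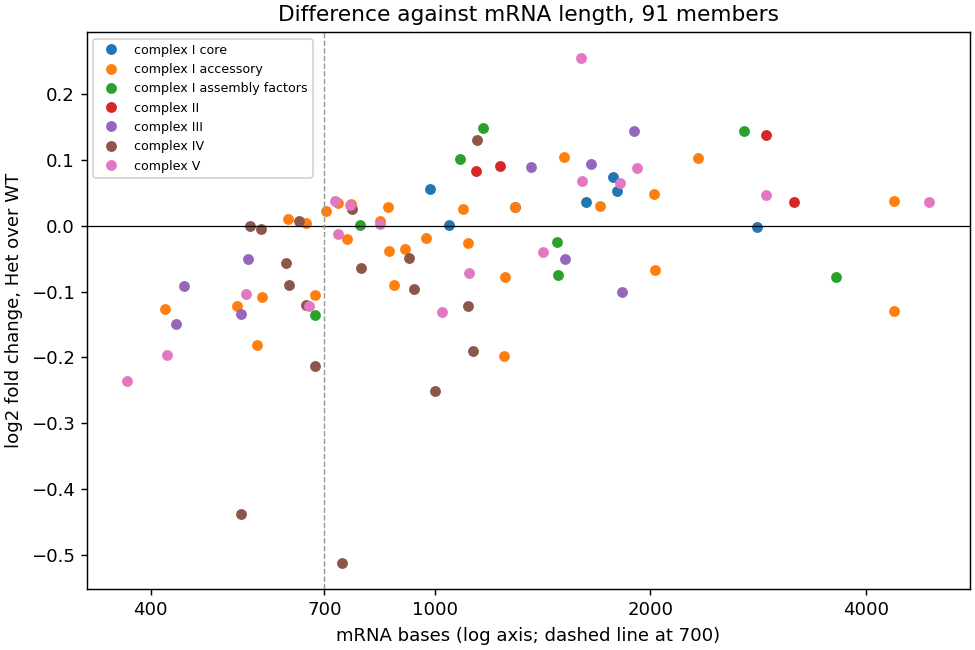
Log2 fold change (Het over WT) of each of the 91 members against its mRNA length in bases (log axis), coloured by class, with a dashed line at 700 bases. Left of the line 21 of 24 members are below 0, and between 1500 and 2500 bases 3 of 16 are. The other ranges hold 10 of 21 (to 1000 bases), 11 of 21 (to 1500) and 3 of 9 (over 2500).

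Other genes of the pathway were read from the same test, and none of the 6 lists held a gene past the threshold. Of the mitochondrially encoded subunits, 7 of 13 were tested and all 7 had negative log2 fold changes (median -0.13). The smallest p was that of mt-Nd6, which averaged 33.2 ± 4.86 CPM over the 5 Het libraries and 39.4 ± 4.68 CPM over the 8 WT libraries (SD), a log2 fold change of -0.25 ± 0.11 (SE; adjusted p = 0.697, edgeR). The other 6, mt-Nd3, mt-Nd4l, mt-Co2, mt-Co3, mt-Atp6 and mt-Atp8, were listed at 0 in all 13 libraries, while mt-Co1 averaged 715 ± 49.9 CPM in Het and 730 ± 51.8 CPM in WT (SD). Mitochondrially encoded subunits made up 0.186% of counts in both genotypes.

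Assembly factors outside the member list were split 20 and 20 between positive and negative among the 40 tested of 43, with a median of 0.00041. Their smallest p was that of Sco1, a copper chaperone of complex IV, at 18.8 ± 1.78 CPM over the 5 Het libraries and 23.5 ± 3.96 CPM over the 8 WT libraries (SD), a log2 fold change of -0.32 ± 0.12 (SE; adjusted p = 0.592, edgeR). Genes for cytochrome c and coenzyme Q had 9 positive and 5 negative values (median 0.08). In that list Coq8a, a kinase-like protein of coenzyme Q synthesis, had 0.35 ± 0.16 (SE; adjusted p = 0.699, edgeR). Citric acid cycle and pyruvate dehydrogenase genes had 14 positive and 3 negative values (median 0.07). Carriers and porins such as Slc25a4, the ADP/ATP carrier, had 6 positive values of 6 (median 0.08).

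Regulators of mitochondrial biogenesis had 4 positive and 10 negative values (median -0.07). Ppargc1a, the coactivator PGC-1 alpha, averaged 30.7 ± 4.58 CPM over the 5 Het libraries and 29.9 ± 3.77 CPM over the 8 WT libraries (SD), a log2 fold change of 0.04 ± 0.11 (SE). Nrf1 had -0.02 ± 0.11 and Tfam, the mitochondrial transcription factor, -0.0013 ± 0.11 (SE). Yy1 had -0.32 ± 0.15 (SE; adjusted p = 0.706, edgeR). Over all genes tested, 8023 values were positive and 8305 negative.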

How the data were processed

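Enamel organ RNA of the 5 Het and 8 WT samples was read as 75-base single reads from unstranded Nextera XT libraries, per the labels' protocols. STAR 2.5.2a and GRCm38 are named in the submitters' processing notes; neither labels nor headers name the counting tool. The authors deposited raw counts per gene for 48733 features, of which 24 are not mouse genes and were left out throughout. Columns name the genotype, and no replicate number of the labels. The members and lists were chosen with earlier results of these data known.

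Counts were tested across all genes in R 4.3.3 by edgeR 4.0.16 (TMM, filterByExpr with a count minimum of 10, robust glmQLFit and glmQLFTest, genotype only), with Benjamini-Hochberg adjustment over 16328 genes and a threshold of 0.05. A second fit tested the library prefix with genotype in the model. SE is the log2 fold change over the root of F. CPM use TMM-scaled library sizes, and log2 CPM a prior count of 2. Levels per length divide CPM by the kb of exon in protein-coding transcripts of GENCODE M21 on GRCm38. Named members were the alternative forms, the core subunits of complexes I to III, the highest and lowest per length and the smallest p in each class, and the largest differences; other genes named were chosen after their values were seen. Values of 1 such member are not reported here. The 78 pairs of libraries differed by a chi-square of at least 10.5 per gene, so none was taken as a repeat. Both fits were checked on simulated data with planted changes larger than that of any member tested. The check does not show whether differences of the members' size would be found. Alternatives were other scaling factors, filters (one from a filtered count table the authors deposited), covariates and left-out libraries, DESeq2 1.42.0 and limma 3.58.1.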

Additional observations from a re-analysis of the deposited data

Results flagged for a closer look

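Groups of libraries were examined for 1 library far from the others, each group being 1 genotype. The values were those of a named member or a mean deviation over a set of genes. Such a library was found in 2 of 104 groups, where chance gives about 1 in 20 groups. Cox8a was at 7.25 log2 CPM in WT 5-1, against 6.66 to 6.90 in the other 7 WT libraries. Ndufv1 was at 7.12 log2 CPM in WT 5-3, against 7.29 to 7.39 in the other 7 WT libraries. The 11 pseudogene rows that the symbol rule leaves out held 1664 counts over the 13 libraries, which is 0.0569% of the members' counts.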

How the results depend on the processing

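Between Het and WT, 0 members were called under all alternatives run except DESeq2, which called 1 (Cox6b2). The number with an unadjusted p under 0.05 was 2 with no filter on low counts, 2 with limma-voom, 1 without prefix 4, 1 without prefix 5, and 1 to 6 with 1 library left out, 6 being without WT 4-4. Complex IV had 8 negative values of 17 without prefix 5. The median log2 fold change of the members ran from -0.06 to 0.04. Between prefixes, 4 members were called with no filter, 1 with the authors' filtered features, 13 with DESeq2, 0 without the 2 libraries of highest muscle markers, 0 without Het 4-2 and WT 4-4, and 0 to 5 with 1 library left out. Of 1187 values of 44 named members, 1185 stayed on their side of the threshold and within 1 SD of the first fit's value. That SD is of the member's log2 CPM over the 8 WT libraries. It is wide: Cox6a2 counted as staying at -0.01 without prefix 4, against -0.21, and Atp5k at -0.11 without prefix 5, against -0.24. Of the other values, 1 moved (Ndufc1, -0.11 without prefix 5) and 1 passed the threshold (Cox6b2, DESeq2). A change of sign occurred in 132 values of 21 members, none with a log2 fold change over 0.13 in size. The alternatives without Het 4-2 and WT 4-4, and the counts of complex IV, of short members and of unadjusted p, were chosen after seeing the data. No paired analysis was possible because the columns carry none of the labels' replicate numbers, so the fit with a replicate block was not run. With the library prefix as a term in its place, 0 members were called and 5 had an unadjusted p under 0.05. Where a cause of a change is not stated, the cause was not tested. Members under about 10 counts in a library are limited by depth.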
